A study of Mus musculus with 12 samples.

Results

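Aminoacyl-tRNA synthetases, the enzymes that load amino acids onto tRNAs, were followed as a family of 34 genes across 12 RNA-seq libraries of mouse spermatogonial stem cells (mSSC). The members were the symbols of a fixed list, taken by exact match to the gene column of every library's table of FPKM, which counts fragments relative to transcript length and to the mapped fragments of the library. All 34 were present in all 12 tables, of 22549 genes listed. Of the 34, 20 encode enzymes of the cytosol and 14, whose symbols end in 2, encode enzymes of mitochondria. The cells were wild-type and male, from testes of DBA/C57 F1 mice aged 5 to 7 days, and each of the 6 groups had 2 libraries described as biological replicates. In a treatment experiment, mSSC on laminin received for 24 h 100.0 nM retinoic acid (RA) with 0.25 mg/ml cycloheximide (CHX), 100.0 nM RA, or vehicle. Cycloheximide blocks the elongation step of protein synthesis. No group received it without RA, so its own effect cannot be told apart from that of the combination. In an induction experiment, GFP-labelled mSSC were grown on Sertoli cells of mouse pups inactivated with mitomycin. The groups were untreated mSSC, induced differentiating spermatogonia (idSG) sorted as GFP-positive and c-KIT-positive at day 3, and induced spermatocytes (iSC) sorted as GFP-positive and c-KIT-negative at day 6.

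Each synthetase recognises its own amino acid and joins it, at the cost of ATP, to the tRNAs that read its codons, and so supplies the ribosome. Cytosolic and mitochondrial translation use mostly separate enzymes. Gars and Kars encode both forms of their enzyme, and Eprs encodes a joined glutamyl- and prolyl-tRNA synthetase. Several cytosolic enzymes are held with scaffold proteins in a multisynthetase complex. The transcription factor ATF4, which cells make when amino acids run short or other stress slows initiation of translation, is known to switch on many cytosolic synthetase genes together with genes of amino acid uptake and synthesis. In the testis, retinoic acid drives spermatogonia towards differentiation and meiosis.

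Summed FPKM per library lay between 459580 and 540064, and 11872 to 12510 genes reached 1 FPKM. The germ cell markers Ddx4, Dazl, Sall4, Dnd1, Tdrd1 and Mael were all present, with summed levels of 803 to 1246 FPKM per library. Dazl, at 409 to 669 FPKM, made up the largest part of this sum. Stra8, which retinoic acid induces in germ cells, averaged 916 ± 17.0 FPKM with RA and CHX, 561 ± 33.2 FPKM with RA and 23.6 ± 0.999 FPKM with vehicle (SD, n = 2 each). The 6 stem and progenitor markers summed to 71.2 and 72.2 FPKM with RA and CHX, 252 to 258 FPKM with RA and 453 to 473 FPKM with vehicle; this sum moved with the treatment groups, and its part in the treatment results was not tested. The iSC libraries stood apart from each other. Stem and progenitor markers summed to 21.7 FPKM in iSC replicate 1 and 122 FPKM in iSC replicate 2, against 423 to 450 FPKM in mSSC. The 5 markers of differentiation and meiotic entry summed to 951 FPKM in iSC replicate 1 and 460 FPKM in iSC replicate 2, against 121 to 130.2 FPKM in mSSC. The 11 Sertoli cell markers set the induced groups apart. Their summed level was 2001 to 2704 FPKM in iSC and 517 to 1239 FPKM in idSG, against 5.26 to 5.27 FPKM in mSSC, where Fshr and Rhox8 were at 0. In the treatment libraries the same sum was 5.35 to 10.3 FPKM, with Fshr at 0.

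All 20 cytosolic members were above 10 FPKM in every group mean. In vehicle-treated cells Gars, for glycine, was the highest at 143 ± 1.03 FPKM and Wars, for tryptophan, the lowest at 16.9 ± 0.819 FPKM (SD, n = 2 each), with a median over the 20 genes of 76.9 FPKM. Gars also led in the cells given RA with CHX, at 210.4 ± 3.47 FPKM, in those given RA, at 122 ± 0.2001 FPKM, and in idSG, at 130.3 ± 17.7 FPKM. In mSSC of the induction experiment Rars, for arginine, averaged 151 ± 4.46 FPKM and Gars 147 ± 0.274 FPKM. In iSC, Dars, for aspartate, averaged 88.9 ± 9.08 FPKM and Gars 87.9 ± 12.7 FPKM. The difference within the mSSC pair was about the SD of Rars, and in iSC the libraries of Dars and Gars overlapped. Wars had the lowest group mean of the cytosolic members in all 6 groups. The mitochondrial members were lower, with a median of 19.3 FPKM over 14 genes in vehicle. Lars2, for leucine, and Iars2, for isoleucine, had the highest mitochondrial means in every group, and Wars2, for tryptophan, had the lowest in all groups but iSC, where Pars2, for proline, was lower. The level of Lars2, and so its rank, is in doubt, since its replicates differed widely in several groups, with 57.8 and 141 FPKM in the libraries with RA and CHX.

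Each experiment was tested with limma on log2(FPKM + 1). Genes whose mean over its libraries reached 1 FPKM entered the test, and a gene was called where its p, adjusted by Benjamini and Hochberg's method, was under 0.05. This covered 12339 genes in the treatment experiment and 12626 in the induction experiment. All cytosolic members were tested in both. Wars2, at 0.855 and 0.881 FPKM with RA and CHX, 0.857 and 0.797 FPKM with RA and 0.657 and 0.498 FPKM with vehicle, was below the minimum in the treatment experiment, which left 13 mitochondrial members there. The 3 comparisons within an experiment share libraries, so they are given side by side and are not independent of each other.

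Retinoic acid alone was accompanied by lower cytosolic synthetase transcripts. Of the 20 genes, 15 fell and 1 rose (limma), against 29.9% of all tested genes lower and 22.8% higher, and the median log2 change was -0.21, against -0.02 over all tested genes. Of the 6 germ cell markers, 5 also fell with RA and 0 rose, with a median log2 change of -0.31, and their part was not tested. In bulk samples, fewer cells of a type and less RNA per cell cannot be told apart. The falls were small: those of the called cytosolic genes lay between -0.11 for Farsa and -0.55 for Aars. Summed over the 20 genes, the level was 1256 and 1233 FPKM in the RA libraries, against 1426 and 1414 FPKM in the vehicle libraries. All genes together also summed to less, at 490390 and 476555 FPKM with RA, against 519763 and 540064 FPKM with vehicle. As a share of that total, the 20 genes made up 0.256% and 0.259% with RA, against 0.274% and 0.262% with vehicle. By share, vehicle replicate 2 thus lay close to the RA libraries.

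Aars, for alanine, fell the most of the cytosolic members. It stood at 32.7 and 33.4 FPKM in the RA libraries, against 48.3 and 49.2 FPKM in the vehicle libraries, a log2 change of -0.55 ± 0.030 (SE; limma, adjusted p = 3.3e-05). Vars, for valine, had 60.9 and 58.3 FPKM with RA, against 77.6 and 78.5 FPKM with vehicle (-0.38 ± 0.031, adjusted p = 0.00013). Iars, for isoleucine, had 63.6 and 62.3 FPKM with RA, against 81.6 and 82.8 FPKM with vehicle (-0.38 ± 0.029, adjusted p = 9.9e-05). Both RA libraries were below both vehicle libraries for each of these genes. Yars, for tyrosine, had 21.1 and 20.1 FPKM with RA, against 24.8 and 24.8 FPKM with vehicle (-0.26 ± 0.036, adjusted p = 0.00108). Dars was the 1 cytosolic gene that rose, with 90.1 and 89.3 FPKM with RA, against 81.2 and 82.9 FPKM with vehicle, a log2 change of 0.13 ± 0.031 (adjusted p = 0.0121). Its call was lost without vehicle replicate 1, at an adjusted p of 0.0582 in limma. Hars, Lars, Tars and Wars, for histidine, leucine, threonine and tryptophan, were not called, with log2 changes of -0.023 ± 0.032, -0.038 ± 0.032, -0.011 ± 0.030 and 0.099 ± 0.047.

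The RA calls depended on how the libraries were scaled and how the spread was estimated. Under quantile normalization 9 cytosolic genes fell and 3 rose: Dars, together with Hars at 0.10 and Tars at 0.11, while Farsa turned to 0.018 and was not called. Over all genes, 43.3% of the RA calls were higher, and 55.2% under quantile normalization. With the spread estimated over all 12 libraries, 2 cytosolic genes, Aars and Iars, were called lower. Calls over all tested genes then also dropped, to 193 higher and 317 lower. With the spread of the treatment experiment alone they were 2815 higher and 3688 lower.

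Retinoic acid with cycloheximide was accompanied by higher cytosolic synthetase transcripts, against the same vehicle libraries. Of the 20 cytosolic genes, 17 rose and 2 fell (limma), against 36.1% of all tested genes higher and 43.2% lower, and the median log2 change was 0.53, against -0.05 over all tested genes. The summed cytosolic level was 1936 and 1915 FPKM with RA and CHX, above both libraries of either other group. Over all genes 45.5% of the calls were higher, and 55.3% under quantile normalization, where 17 members again rose.

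Wars, for tryptophan, had the largest rise, with 28.8 and 29.6 FPKM with RA and CHX, against 17.4 and 16.3 FPKM with vehicle, a log2 change of 0.76 ± 0.047 (limma, adjusted p = 5.39e-06). Nars, for asparagine, had 107 and 102 FPKM with RA and CHX, against 63.4 and 61.8 FPKM with vehicle (0.73 ± 0.034, adjusted p = 1.32e-06). Tars, for threonine, had 113 and 109 FPKM with RA and CHX, against 70.1 and 69.4 FPKM with vehicle (0.66 ± 0.030, adjusted p = 1.2e-06). These genes were higher in both libraries of the combination than in either vehicle library. Dars had 125 and 130.2 FPKM with RA and CHX, against 81.2 and 82.9 FPKM with vehicle (0.63 ± 0.031, adjusted p = 1.62e-06). Gars, the most abundant member, had 213 and 208 FPKM with RA and CHX, against 144 and 143 FPKM with vehicle (0.55 ± 0.029, adjusted p = 2.15e-06). The other risers, Aars, Cars, Eprs, Farsa, Farsb, Iars, Lars, Mars, Rars, Sars, Vars and Yars, changed by 0.31 to 0.62.

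These others covered the charging of a wide set of amino acids, in means ± SD of 2 libraries. Mars, for methionine, averaged 142 ± 1.93 FPKM with RA and CHX, 81.2 ± 2.62 FPKM with RA and 95.1 ± 0.0718 FPKM with vehicle. Sars, for serine, averaged 73.4 ± 0.158 FPKM with RA and CHX, 44.0 ± 0.784 FPKM with RA and 47.9 ± 0.232 FPKM with vehicle. Cars, for cysteine, averaged 47.6 ± 0.346 FPKM with RA and CHX, 28.2 ± 0.820 FPKM with RA and 31.6 ± 0.745 FPKM with vehicle. In all 3 genes the SDs were smaller than the distances between groups. Eprs averaged 130.3 ± 2.37 FPKM with RA and CHX, 77.5 ± 0.366 FPKM with RA and 91.7 ± 1.80 FPKM with vehicle. Iars averaged 109 ± 0.934 FPKM with RA and CHX, beside its RA and vehicle values above, and Vars 101 ± 0.404 FPKM. Lars had the smallest of the called rises, averaging 41.1 ± 0.274 FPKM with RA and CHX, 32.2 ± 0.696 FPKM with RA and 33.1 ± 0.478 FPKM with vehicle.

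The exceptions were Kars, Hars and Qars. Kars, for lysine, had 76.1 and 76.6 FPKM with RA and CHX, against 92.8 and 93.4 FPKM with vehicle (-0.28 ± 0.027; limma, adjusted p = 5.08e-05). Hars, for histidine, had 50.2 and 48.6 FPKM with RA and CHX, against 58.7 and 59.9 FPKM with vehicle (-0.26 ± 0.032, adjusted p = 0.000202). For both, the libraries of the combination were below both vehicle libraries. Qars, for glutamine, was not called, at 88.3 and 87.8 FPKM with RA and CHX, against 92.3 and 90.3 FPKM with vehicle (-0.051 ± 0.038, adjusted p = 0.253).

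Set against RA alone, the combination held 18 cytosolic genes higher and 1 lower (limma), against 35.1% of all tested genes higher and 42.5% lower, with a median log2 difference of 0.73. Aars had 69.0 and 68.3 FPKM with RA and CHX, against 32.7 and 33.4 FPKM with RA, the largest of these differences at 1.03 ± 0.030 (adjusted p = 3.08e-07). Nars had the 107 and 102 FPKM with RA and CHX given above, against 53.3 and 54.6 FPKM with RA (0.94 ± 0.034, adjusted p = 6.77e-07). Yars had 37.5 and 37.8 FPKM with RA and CHX, against 21.1 and 20.1 FPKM with RA (0.84 ± 0.036, adjusted p = 1.19e-06). All of these libraries were apart, with no overlap between groups. Rars had 161 and 160.0 FPKM with RA and CHX, against 90.1 and 89.8 FPKM with RA (0.83 ± 0.027, adjusted p = 4.69e-07). Hars was the gene that stood lower, at 50.2 and 48.6 FPKM with RA and CHX, against 59.1 and 57.6 FPKM with RA (-0.24 ± 0.032, adjusted p = 0.000353). Kars, at 76.1 and 76.6 FPKM with RA and CHX, against 79.1 and 77.8 FPKM with RA, was not called (-0.039 ± 0.027, adjusted p = 0.229). Qars, at 88.3 and 87.8 FPKM with RA and CHX, against 82.3 and 76.7 FPKM with RA, was higher by 0.15 ± 0.038 (adjusted p = 0.00976), but quantile normalization turned this to -0.0207 and ended the call. Under the same normalization Kars was called lower (-0.19, adjusted p = 0.00053).

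**Figure D1:**
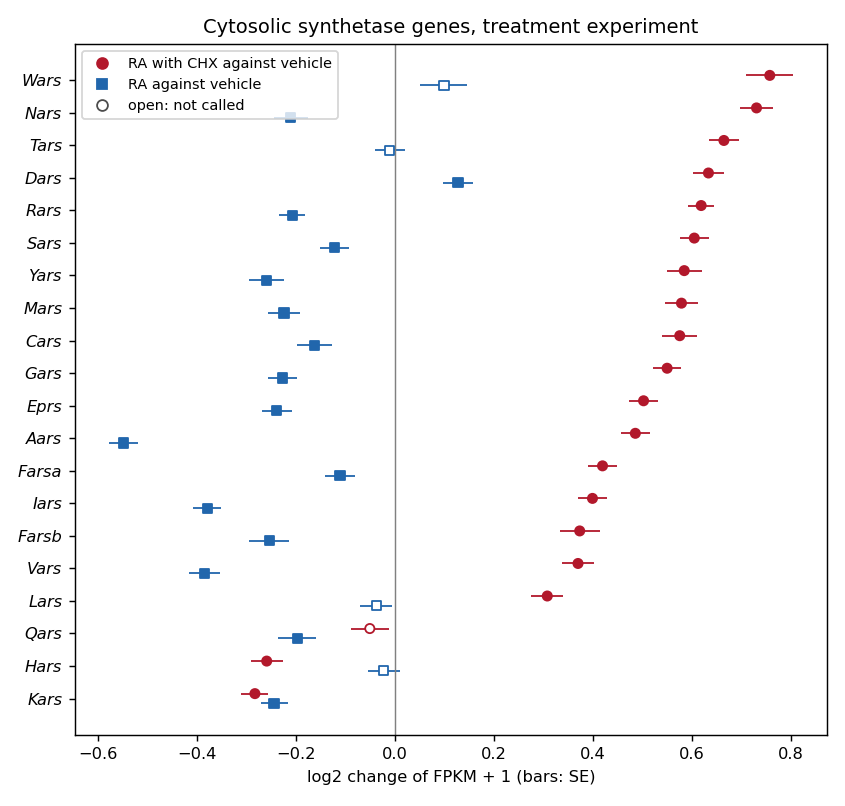
Log2 changes of FPKM + 1 (horizontal axis) of the 20 cytosolic synthetase genes (rows) for RA with CHX against vehicle and RA against vehicle, with bars for the SE and filled symbols for called genes; each group had 2 libraries. With RA and CHX 17 genes lie right of 0 and are called and Kars and Hars are called left of it, while with RA 15 are called left of 0 and Dars right of it; under quantile normalization Farsa, Hars and Tars turn to the right of 0 with RA.

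Of the 8 enzymes of the multisynthetase complex (Dars, Eprs, Iars, Kars, Lars, Mars, Qars and Rars), 6 rose and 1 fell with RA and CHX against vehicle, with a median log2 change of 0.45 (limma). Of the 12 outside it, 11 rose and 1 fell, with a median of 0.56; over all tested genes 36.1% rose and 43.2% fell. With RA against vehicle, 6 of the 8 fell and 1 rose (median -0.22), and 9 of the 12 fell (median -0.19), against 29.9% of all tested genes lower and 22.8% higher. The subunits of phenylalanyl-tRNA synthetase, Farsa and Farsb, act as a pair. The ratio of Farsb to Farsa FPKM was 0.82 and 0.83 with RA and CHX, 0.78 and 0.76 with RA, and 0.88 and 0.83 with vehicle.

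The mitochondrial enzymes also rose with the combination. Of 13 tested, 10 rose and none fell against vehicle (limma), beside the same shares of all genes as above, with a median log2 change of 0.35. Aars2, Lars2 and Pars2 were not called. Against RA 10 of 13 were again higher and none lower, with a median of 0.44. At an unadjusted p under 0.05 the counts of lower genes were also 0. Of all 12339 tested genes, 5420 were lower than with vehicle and 5329 lower than with RA at that threshold. Without Lars2, the mitochondrial sum was 305 and 304 FPKM with RA and CHX, 213 and 209 FPKM with RA, and 227 and 225 FPKM with vehicle.

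Yars2, for tyrosine, had 39.8 and 40.2 FPKM with RA and CHX, 23.2 and 21.9 FPKM with RA and 24.4 and 25.2 FPKM with vehicle. It was 0.67 ± 0.039 higher on the log2 scale with the combination than with vehicle (limma, adjusted p = 3.75e-06) and 0.80 ± 0.039 higher than with RA (adjusted p = 2.08e-06). No library of the combination overlapped with the others. Fars2, for phenylalanine, had 32.9 and 34.8 FPKM with RA and CHX, against 22.2 and 22.5 FPKM with vehicle (0.58 ± 0.043, adjusted p = 1.31e-05). Ears2, the glutamyl enzyme that in mitochondria also charges the glutamine tRNA for later amidation, had 21.6 and 24.6 FPKM with RA and CHX, 14.0 and 13.3 FPKM with RA and 16.9 and 15.7 FPKM with vehicle. The combination stood 0.72 ± 0.067 above RA (adjusted p = 4.79e-05). Of the other members called, Cars2, Iars2, Mars2, Nars2, Rars2, Sars2 and Tars2 rose by 0.20 to 0.50 against vehicle. Cars2 averaged 19.8 ± 0.342 FPKM with RA and CHX, 14.2 ± 0.0738 FPKM with RA and 13.7 ± 0.365 FPKM with vehicle. Mars2, one of the lower-expressed members, averaged 9.73 ± 0.161 FPKM with RA and CHX, 7.57 ± 0.0951 FPKM with RA and 7.65 ± 0.412 FPKM with vehicle. Aars2 averaged 4.84 ± 0.0647 FPKM with RA and CHX, 4.43 ± 0.102 FPKM with RA and 4.61 ± 0.521 FPKM with vehicle, with no difference that passed the test. Pars2 averaged 2.40 ± 0.258 FPKM with RA and CHX, 1.98 ± 0.0221 FPKM with RA and 2.42 ± 0.312 FPKM with vehicle, and was not called either.

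With RA alone, 4 of 13 mitochondrial genes fell and 1 rose (limma), with a median log2 change of -0.09; the share of all genes called lower was 29.9%, close to the 30.8% of members. Iars2 had 35.4 and 35.4 FPKM with RA, against 45.7 and 44.3 FPKM with vehicle (-0.34 ± 0.031, adjusted p = 0.000207), the largest fall called. Ears2 changed by -0.24 ± 0.067 (adjusted p = 0.0202), and Nars2 and Yars2 were also called lower. Rars2, for arginine, rose at 26.8 and 26.5 FPKM with RA, against 25.4 and 23.0 FPKM with vehicle (0.14 ± 0.048, adjusted p = 0.0476). The call on Rars2 was lost when vehicle replicate 2, either RA library or either library of the combination was left out (adjusted p = 0.0782 to 0.2). Without RA replicate 2 the number of falls was 1, and without vehicle replicate 2 it was 2.

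Lars2 differed too much between replicates to be called. It had 57.8 and 141 FPKM with RA and CHX, 87.4 and 107 FPKM with RA and 144 and 109 FPKM with vehicle. The combination overlapped with both other groups, while both RA libraries lay below both vehicle libraries. The log2 change of RA with CHX against vehicle was -0.47 ± 0.36 (limma, adjusted p = 0.269). Against RA it was -0.099 ± 0.36 (adjusted p = 0.815). The difference from RA was 0.53 without the first library of the combination (adjusted p = 0.0391) and -0.73 without the second (adjusted p = 0.0126).

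**Figure D2:**
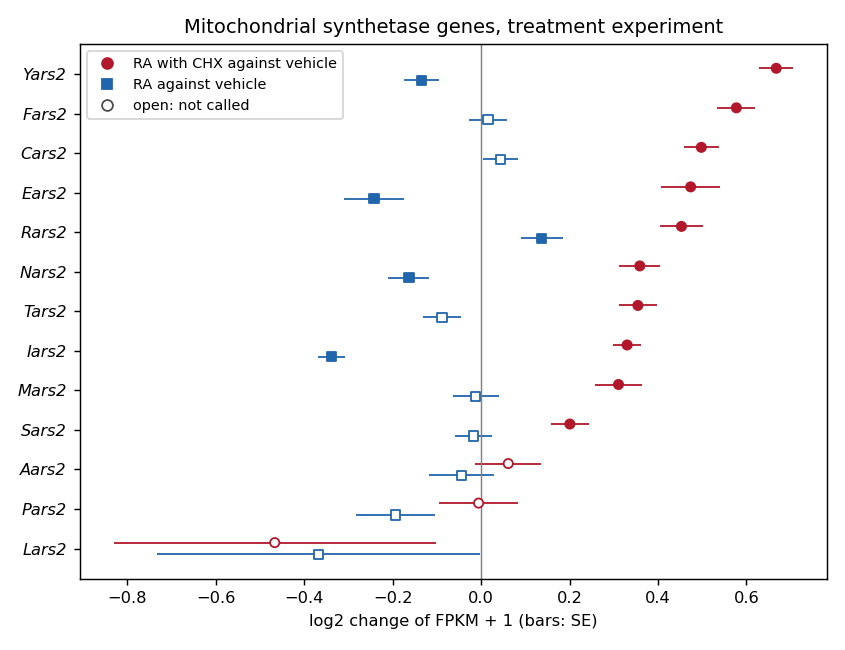
Log2 changes of FPKM + 1 (horizontal axis) of the 13 mitochondrial synthetase genes tested (rows) for RA with CHX against vehicle and RA against vehicle, with bars for the SE and filled symbols for called genes; each group had 2 libraries. With RA and CHX 10 genes are called right of 0, and with RA 4 are called left of it and Rars2 right of it; Lars2 has the widest bars.

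Promoter sequence was read for 26 of the 34 members, 13 cytosolic and 13 mitochondrial, from RefSeq on GRCm38.p6, a later build than the mm9 of the expression tables. Each window ran from 250 bases before to 50 bases after the gene start. The windows were searched on both strands for TGATGNAA, the letters of the composite element that ATF4 is known to bind with a C/EBP protein, whose reverse complement is TTNCATCA. A gene was counted where any of its windows held these letters. They were present in 5 of 13 cytosolic genes (38.5%): Aars, Gars, Iars, Tars and Yars. They were present in 0 of 13 mitochondrial genes and in 4.51% of all 27025 genes with a window. A match is a description of the sequence only. The stretches of 60 bases that hold the matches are shown because all 5 genes rose with the combination of RA and CHX; capitals mark the matching letters, and each runs 5′ to 3′ on the strand of the gene.
Aars chr8:111033683-111033742, plus strand: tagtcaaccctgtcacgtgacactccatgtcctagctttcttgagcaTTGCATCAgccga
Aars chr8:111033804-111033863, plus strand: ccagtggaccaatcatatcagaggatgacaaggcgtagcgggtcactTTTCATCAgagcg
Gars chr6:55037924-55037983, plus strand: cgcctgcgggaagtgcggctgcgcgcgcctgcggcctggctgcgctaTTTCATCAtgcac
Iars chr13:49682090-49682149, plus strand: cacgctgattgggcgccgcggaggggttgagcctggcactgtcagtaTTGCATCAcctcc
Tars chr15:11399661-11399720, minus strand: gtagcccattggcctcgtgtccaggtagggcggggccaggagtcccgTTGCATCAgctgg
Yars chr4:129189859-129189918, plus strand: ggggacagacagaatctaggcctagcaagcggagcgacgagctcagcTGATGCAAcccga
Aars held 2 matches, the first starting at position -112 and the other at position 10 from the gene start. The match of Gars started at -30, that of Iars at 8, that of Tars at -15 and that of Yars at 4. On the log2 scale these 5 genes changed by 0.49, 0.55, 0.40, 0.66 and 0.58 with RA and CHX against vehicle. The 8 cytosolic genes with no match in the window changed by 0.63 (Dars), 0.60 (Sars), 0.58 (Mars), 0.50 (Eprs), 0.42 (Farsa), 0.37 (Farsb), -0.051 (Qars, not called) and -0.28 (Kars).

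Genes related to the synthetases moved in both directions with the combination. Of 21 tested genes of ATF4 and the amino acid response, 11 rose and 9 fell with RA and CHX against vehicle, and 1 rose and 14 fell with RA against vehicle (limma). The 42.9% lower with the combination was near the 43.2% of all tested genes, and 36.1% of all genes were higher; with RA, 29.9% of all genes were lower and 22.8% higher. Atf4 itself averaged 193 ± 2.81 FPKM with RA and CHX, 88.0 ± 0.584 FPKM with RA and 106 ± 1.90 FPKM with vehicle, a log2 change of 0.85 ± 0.029 with the combination (adjusted p = 3.84e-07) and -0.27 ± 0.029 with RA (adjusted p = 0.000428), both against vehicle. Ddit3, a stress transcription factor downstream of ATF4, changed by 1.81 ± 0.060 with the combination and -0.32 ± 0.060 with RA. Asns, asparagine synthetase, changed by 1.47 ± 0.037 and 0.25 ± 0.037. Chac1, which degrades glutathione, and Nupr1, a stress-induced chromatin protein, had the largest rises with the combination, 3.10 and 2.78. Ppp1r15a, which brings the phosphatase that restores initiation, fell the most with the combination (-0.97), followed by Slc7a5, a transporter of large neutral amino acids (-0.95). Phgdh, the first enzyme of serine synthesis, and Slc7a5 fell the most with RA (-0.96 and -0.78). Mycn, one of the Myc factors known to drive genes of translation, fell by 3.59 on the log2 scale with the combination against vehicle and by 1.02 with RA against vehicle. Max, its partner, also fell in both (-0.40 and -0.27), and Mga, a repressor that pairs with Max, rose with the combination (1.00) and fell with RA (-0.11); Myc was under the minimum there.

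The scaffold and elongation factor partners, 8 genes, all fell with RA, and 3 rose and 4 fell with RA and CHX, both against vehicle (limma). The shares with the combination, 37.5% higher and 50% lower, were near the 36.1% and 43.2% of all tested genes; with RA, 29.9% of all genes were lower. Aimp2, a scaffold of the multisynthetase complex, rose the most with the combination, at 147 ± 0.277 FPKM with RA and CHX, 60.02 ± 2.42 FPKM with RA and 72.4 ± 0.827 FPKM with vehicle (1.01 ± 0.035 against vehicle, adjusted p = 3.72e-07). Aimp1, another scaffold, rose by 0.51. Eef1a1, which carries charged tRNA to the ribosome, fell the most with the combination (-0.80), followed by Eef1b2, its exchange factor (-0.47). Eef1g and Eef1b2 fell the most with RA (-0.44 and -0.38).

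Of 13 other synthetase, transamidation and charging genes, 7 rose and 3 fell with the combination, and 1 rose and 3 fell with RA, both against vehicle (limma). Over all tested genes 36.1% rose and 43.2% fell with the combination, and 22.8% rose and 29.9% fell with RA. Pet112l, a subunit of the mitochondrial transamidase that makes glutaminyl-tRNA, rose the most with the combination (0.99) and was the gene that rose with RA (0.27). Hars2, the mitochondrial histidyl enzyme, came next with the combination (0.46). Tarsl2, another threonyl enzyme of the cytosol, fell the most with the combination (-0.78), followed by Xpot, the exporter of tRNA from the nucleus (-0.54). Xpot and Pstk, a kinase of the selenocysteine pathway, fell the most with RA (-0.40 and -0.27). Of 9 mitochondrial translation factors, 3 rose (33.3%, near the 36.1% of all genes) and 2 fell with the combination, with a median log2 change of -0.025. Gfm2 and Tsfm, an elongation factor of ribosome recycling and an exchange factor, rose by 0.39 and 0.32, and the release factors Mtrf1 and Mtrf1l fell (-0.39 and -0.34).

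During induction on Sertoli cells, synthetase transcripts were lower in iSC than in the starting mSSC. Of the 20 cytosolic genes, 10 were lower and 1 higher in iSC than in mSSC (limma), against 25% of all tested genes lower and 26.2% higher. The median log2 difference was -0.42, against -0.03 over all tested genes. Under quantile normalization, which moved the all-gene median to -0.13, 10 genes were called lower and 2, Lars and Nars, higher. The summed cytosolic level was 1498 and 1539 FPKM in mSSC, 1452 and 1250 FPKM in idSG, and 1006 and 1106 FPKM in iSC. Of the iSC libraries, replicate 2 had the higher synthetase sum, but also the higher summed FPKM of all genes. As a share of that total, the 20 genes made up 0.2188% in iSC replicate 1 and 0.2196% in iSC replicate 2. In the mSSC libraries the share was 0.304% and 0.310%. Without iSC replicate 1, 7 cytosolic genes were called lower than in mSSC, and without iSC replicate 2, 13 were. The Sertoli and the stem and progenitor marker sums moved with these groups, as given above. The sum of 6 fibroblast and peritubular markers was 376 to 506 FPKM in iSC, above the 58.3 to 173 FPKM in mSSC. In idSG it was 158 to 218 FPKM and overlapped with mSSC. These 6 did not move together: 3 were called higher and 1 lower in iSC than in mSSC. Pdgfra averaged 1.16 FPKM in iSC and 5.30 FPKM in mSSC. The sum of 4 Leydig markers was 95.3 to 142 FPKM in iSC and 34.2 to 70.7 FPKM in idSG. In mSSC it was 2.39 to 2.61 FPKM, and in each group it was mostly Star. Star had 141 and 93.2 FPKM in iSC, while Cyp17a1 and Insl3 stayed under 1 FPKM in every group. Of the 6 germ cell markers, 4 were lower and 0 higher in iSC than in mSSC, with a median log2 difference of -1.09. The part of all these markers in the result was not tested.

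**Figure D3:**
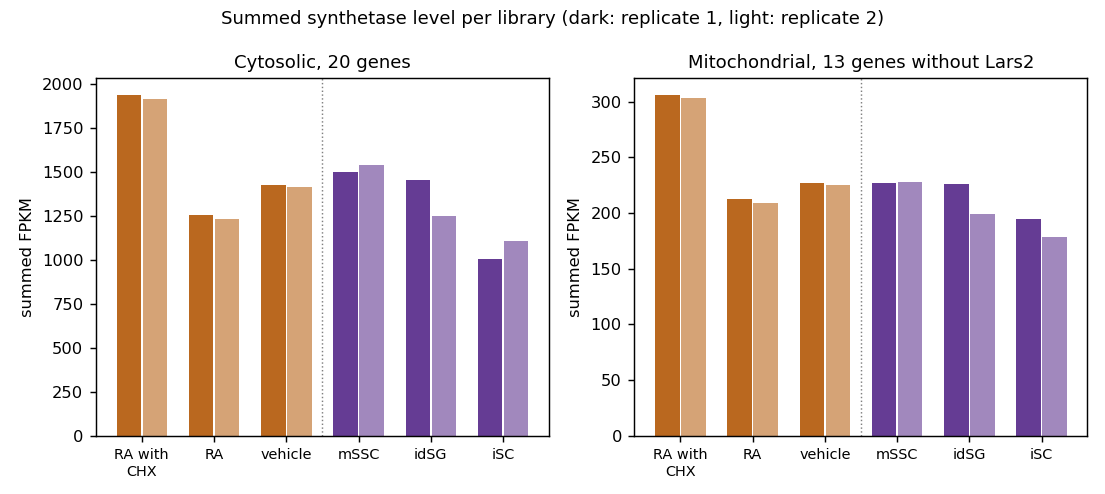
Summed FPKM of each library (vertical axis, bars) for the 20 cytosolic genes and for the mitochondrial genes without Lars2, by group (horizontal axis), with dark bars for replicate 1 and light bars for replicate 2. The cytosolic sum is 1936 and 1915 FPKM with RA and CHX, above the RA and vehicle libraries, and 1006 and 1106 FPKM in iSC, below the idSG and mSSC libraries.

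Qars, for glutamine, was the member with the largest difference. It had 45.1 and 57.3 FPKM in iSC, against 122 and 118 FPKM in mSSC, a log2 difference of -1.22 ± 0.16 (limma, adjusted p = 0.00174). Vars had 29.7 and 45.2 FPKM in iSC, against 81.5 and 70.9 FPKM in mSSC (-1.03 ± 0.20, adjusted p = 0.0062). Mars, for methionine, had 47.9 and 57.9 FPKM in iSC, against 100.4 and 105 FPKM in mSSC (-0.95 ± 0.15, adjusted p = 0.00323). Every iSC library was below every mSSC library for these genes, although the iSC replicates of Vars differed from each other more than those of most members. Rars had 72.0 and 86.2 FPKM in iSC, against 148 and 155 FPKM in mSSC (-0.93 ± 0.16, adjusted p = 0.0041). Lars, for leucine, was the 1 gene called higher, at 55.3 and 44.4 FPKM in iSC, against 32.0 and 35.2 FPKM in mSSC (0.55 ± 0.15, adjusted p = 0.0217). Eprs, Farsa, Gars, Hars, Iars and Kars were also called lower, by -0.87 for Farsa to -0.45 for Eprs. Gars averaged 147 ± 0.274 FPKM in mSSC, 130.3 ± 17.7 FPKM in idSG and 87.9 ± 12.7 FPKM in iSC, and Kars 121 ± 19.9 FPKM in mSSC, 102 ± 16.3 FPKM in idSG and 70.1 ± 10.9 FPKM in iSC (SD, n = 2 each). The call on Lars was lost without mSSC replicate 1 (adjusted p = 0.143), mSSC replicate 2 (0.0771) or iSC replicate 1 (0.0799). The remaining 9, Aars, Cars, Dars, Farsb, Nars, Sars, Tars, Wars and Yars, were not called, with log2 differences of -0.39 for Aars to 0.28 for Nars.

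Of the 8 complex enzymes 6 were lower and 1 higher in iSC than in mSSC, with a median log2 difference of -0.72, and of the 12 others 4 were lower (33.3%), with a median of -0.32 (limma). Over all tested genes 25% were lower and 26.2% higher, so the share of the 12 was near that of all genes. The number of cytosolic genes called lower was 6 without either mSSC library. The subunits of the phenylalanyl enzyme parted: Farsa had 50.9 and 51.0 FPKM in iSC, against 94.6 and 93.4 FPKM in mSSC (-0.87 ± 0.15, adjusted p = 0.00408). Farsb had 61.2 and 61.7 FPKM in iSC, against 71.7 and 72.8 FPKM in mSSC (-0.23 ± 0.14, adjusted p = 0.193). The ratio of Farsb to Farsa was 1.20 and 1.21 in the iSC libraries, against 0.76 and 0.78 in the mSSC libraries. In the other 8 libraries it lay between 0.73 and 0.88. With 2 libraries against 2, an exact permutation test of this ratio cannot give a p below 0.333.

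Between the stages the calls were fewer. In idSG against mSSC, 3 cytosolic genes were lower and 1 higher (limma), against 10.7% of all tested genes lower and 17.9% higher, with a median log2 difference of -0.17. Qars had 86.9 and 71.9 FPKM in idSG, against 122 and 118 FPKM in mSSC (-0.60 ± 0.16, adjusted p = 0.0343). Rars had 112 and 88.4 FPKM in idSG, against 148 and 155 FPKM in mSSC (-0.60 ± 0.16, adjusted p = 0.0344). For both genes the idSG libraries lay below the mSSC libraries. Iars had 50.8 and 50.2 FPKM in idSG, against 70.3 and 69.7 FPKM in mSSC (-0.46 ± 0.12, adjusted p = 0.0337). Tars was called higher, at 80.3 and 66.9 FPKM in idSG, against 54.4 and 52.5 FPKM in mSSC (0.45 ± 0.13, adjusted p = 0.0464). The groups did not overlap for these genes. All 4 calls were lost without idSG replicate 2 or either mSSC library, and without idSG replicate 1 the count was 2 lower and 0 higher. Calls over all genes also fell when some single libraries were left out, so a loss of calls was not particular to the members. Over all genes 62.7% of the calls were higher in idSG, and 47.8% under quantile normalization.

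In iSC against idSG, 5 cytosolic genes were lower and 0 higher (limma), against 6.75% of all tested genes lower and 4.46% higher, with a median log2 difference of -0.30. They were Vars, at 29.7 and 45.2 FPKM in iSC, against 69.5 and 66.6 FPKM in idSG (-0.87 ± 0.20, adjusted p = 0.0425), and Mars, Farsa, Tars and Hars. Mars had 47.9 and 57.9 FPKM in iSC, against 93.1 and 76.3 FPKM in idSG (-0.67 ± 0.15, adjusted p = 0.0425), and Farsa 50.9 and 51.0 FPKM in iSC, against 91.9 and 70.3 FPKM in idSG (-0.65 ± 0.15, adjusted p = 0.0431). Tars had 46.2 and 49.9 FPKM in iSC, against 80.3 and 66.9 FPKM in idSG (-0.60 ± 0.13, adjusted p = 0.0398), and Hars had a log2 difference of -0.57 ± 0.13 (adjusted p = 0.0421). Tars thus stood highest at the middle stage, called higher in idSG than in mSSC and lower in iSC than in idSG. No cytosolic gene was called without iSC replicate 1, idSG replicate 1 or either mSSC library, and 2 were called without idSG replicate 2. Calls over all genes also fell steeply when some single libraries were left out, so a loss of calls was not particular to the members. At an unadjusted p under 0.05, 9 cytosolic genes were lower and still 0 higher. Of all 12626 tested genes, 2412 were lower and 1831 higher at that threshold. Over all genes 39.8% of the adjusted calls in iSC against idSG were higher, and 50.6% under median-ratio scaling.

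**Figure D4:**
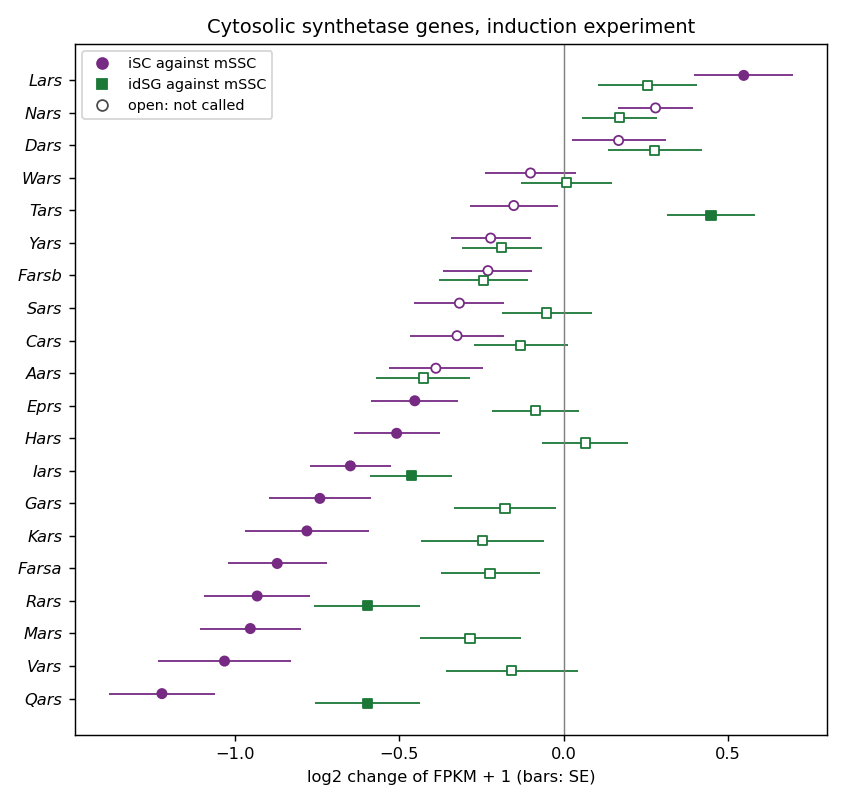
Log2 differences of FPKM + 1 (horizontal axis) of the 20 cytosolic synthetase genes (rows) for iSC against mSSC and idSG against mSSC, with bars for the SE and filled symbols for called genes; each group had 2 libraries. For iSC 10 genes are called left of 0 and Lars right of it, with Qars farthest left at -1.22, while for idSG Qars, Rars and Iars are called left and Tars right.

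Few mitochondrial members were called in the induction experiment. In iSC against mSSC, 4 of 14 were lower and 0 higher (limma), a share of 28.6% beside the 25% of all genes, with a median log2 difference of -0.31. Pars2, for proline, had 0.963 and 1.67 FPKM in iSC, against 4.30 and 3.30 FPKM in mSSC (-1.06 ± 0.24, adjusted p = 0.0114), on a log2(FPKM + 1) scale that understates changes at such levels. Sars2, for serine, had 12.2 and 13.7 FPKM in iSC, against 25.99 and 23.0 FPKM in mSSC (-0.87 ± 0.15, adjusted p = 0.00382). Cars2 and Iars2, for cysteine and isoleucine, were the other calls. For each of these the iSC libraries lay below the mSSC libraries. In idSG against mSSC the 1 call was Iars2, with 35.8 and 36.1 FPKM in idSG, against 49.6 and 46.4 FPKM in mSSC (-0.41 ± 0.12, adjusted p = 0.0457). In iSC against idSG it was Sars2, with 12.2 and 13.7 FPKM in iSC, against 21.1 and 19.0 FPKM in idSG (-0.59 ± 0.15, adjusted p = 0.0488). Each single call was 7.14% of the 14 members, beside 10.7% of all genes lower in idSG against mSSC and 6.75% in iSC against idSG. Both single calls were lost when any 1 library of their own groups, or an mSSC library, was left out. The 4 calls in iSC against mSSC became 1 without mSSC replicate 1 and 2 without mSSC replicate 2; at an unadjusted p under 0.05, 7 genes were lower and 1, Wars2, higher. Of all 12626 tested genes, 3668 were lower and 3713 higher at that unadjusted threshold. Wars2, the lowest member, had 2.51 and 2.03 FPKM in iSC, against 1.14 and 1.31 FPKM in mSSC (0.55 ± 0.22, adjusted p = 0.0728). Lars2 had replicates far apart in mSSC and iSC and close in idSG, with 46.8 and 77.3 FPKM in mSSC, 47.2 and 45.5 FPKM in idSG and 47.9 and 95.4 FPKM in iSC, and was not called.

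Setting each cytosolic gene over its mitochondrial counterpart in the same library gave 12 pairs. Wars over Wars2 lay between 7.24 and 33.6, and Aars over Aars2 lay between 5.25 and 14.2. Aars over Aars2 averaged 14.2 ± 0.0843 with RA and CHX, 7.47 ± 0.279 with RA and 10.6 ± 1.06 with vehicle (SD, n = 2 each). Mars over Mars2 stayed between 10.4 and 16.02. The tyrosine pair was near parity, with Yars over Yars2 between 0.91 and 1.40 in all 12 libraries. Lars was below Lars2 in 11 of 12 libraries, with a ratio of 0.23 to 1.15 that carries the doubt about the level of Lars2. Nars over Nars2 averaged 5.25 ± 0.325 in mSSC, 8.91 ± 0.975 in idSG and 10.3 ± 3.48 in iSC.

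**Figure D5:**
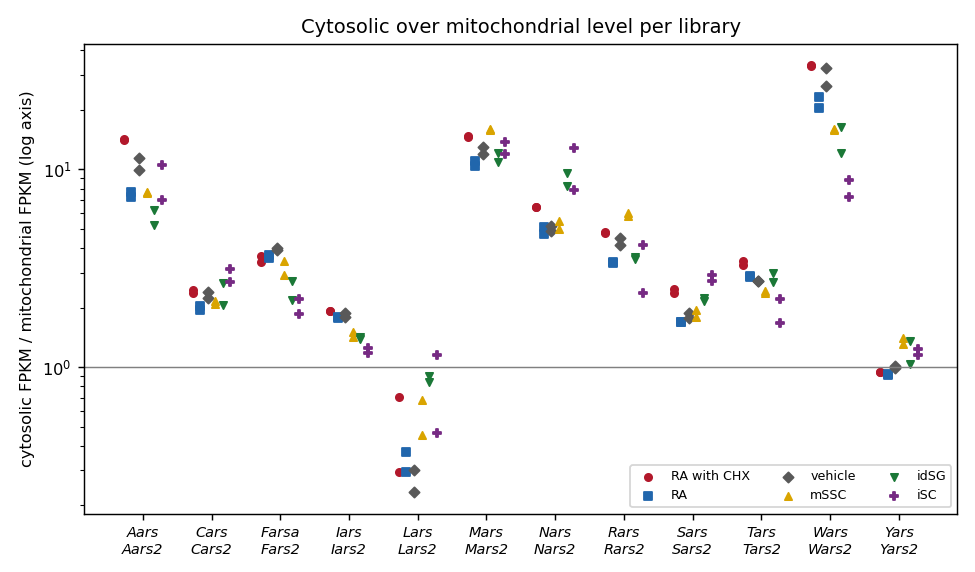
Ratio of cytosolic to mitochondrial FPKM (vertical axis, log scale) for the 12 amino acids with both genes among the members (horizontal axis), with 1 point for each of the 12 libraries. Wars over Wars2 reaches 33.6, Yars over Yars2 stays between 0.91 and 1.40, and Lars over Lars2 spans 0.23 to 1.15.

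Of the ATF4 and amino acid response list, 5 rose (23.8%) and 6 fell (28.6%) in iSC against mSSC (limma, 21 tested), shares near the 26.2% and 25% of all tested genes. Shmt2, a mitochondrial enzyme of serine use, and Phgdh had the largest falls (-2.11 and -1.95), while Nupr1 (4.91) and Atf5, a relative of Atf4 (0.99), had the largest rises. Atf4 was not called in iSC against mSSC, with 129 ± 61.5 FPKM in iSC, against 73.0 ± 2.02 FPKM in mSSC (0.73 ± 0.30, adjusted p = 0.0775). In idSG against mSSC 3 of these genes rose (14.3%) and 2 fell (9.52%), under the 17.9% and 10.7% of all tested genes. In iSC against idSG 1 rose (4.76%) and 3 fell (14.3%), beside 4.46% and 6.75% of all tested genes. Of the 8 scaffold and elongation genes, Aimp2 (-0.87) and Eef1e1, another scaffold (-0.80), were lower in iSC than in mSSC, a share of 25% as over all genes. Of the 13 other charging genes, Tarsl2 was higher (1.33) and Xpot and Mtfmt, which formylates the mitochondrial initiator tRNA, were lower (-0.89 and -0.58). Of the 9 mitochondrial translation factors, Tufm, the elongation factor that carries tRNA (-0.78), and Gfm2 (-0.56) were lower. The shares were 7.69% higher and 15.4% lower of the 13, and 22.2% lower of the 9. All were under the 26.2% higher and 25% lower of all tested genes. Myc itself stood higher in iSC than in mSSC (4.54) and Mycn lower (-1.36). The Sertoli, fibroblast and Leydig marker sums were also higher in iSC than in mSSC, with the limits given above, and most germ cell markers were lower. The part of these markers in these differences was not tested.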

How the data were processed

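Total RNA was isolated with TRIZOL and cleared of DNA before library making, per the labels' protocols. The authors deposited 1 table of FPKM values per library; TopHat2 2.0.6, Cuffdiff and the build mm9 are named in the submitters' processing notes, and for Cuffdiff its version and scaling were not given in the sources used here. FPKM are not counts, so no count test was used. Relative depth, read from the steps of low values, was 83.5% to 99.7% of that of the first library of each experiment. Lines repeated within a table (25 in 1 vehicle table) were counted once.

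Each experiment was fitted alone with limma 3.58.1 in R 4.3.3 (empirical Bayes with a trend, 3 residual degrees of freedom) on log2(FPKM + 1), over genes whose mean reached 1 FPKM, with Benjamini-Hochberg adjustment over all genes tested and a threshold of 0.05. A fold change on this scale understates the change of low genes. Tables and figures used Python 3.11.15, pandas 2.3.3 and matplotlib 3.10.9. The test was checked on simulated data in which few genes changed. That check does not measure the share of false calls in these data, where many more genes were called. Every member is accounted for. Values in every library are given for up to 4 called cytosolic genes highest and 4 lowest and up to 2 called mitochondrial genes each way per comparison, and the rest by range and count. Other genes named are Atf4, Ddit3, Asns and Stra8, and up to 2 called genes each way from each related list. Gars in the combination, the Farsa and Farsb pair and the ratios between compartments were added beside that rule. The members, lists and comparisons were chosen with earlier results of these data known. With 2 libraries a group, p-values weigh a difference against a spread pooled over the groups of an experiment and moderated across genes. They speak for these samples only. Replicate numbers did not pair the libraries. Promoter sequences are RefSeq's, GRCm38.p6, matched by symbol, with Mars under its later symbol.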

Additional observations from a re-analysis of the deposited data

How the results depend on the processing

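Of the calls on members, those with RA and CHX depended least on the settings. Against vehicle, 17 of 19 cytosolic calls were kept under each of the 17 alternatives and 19 of 19 kept their direction; against RA these were 18 of 19 and 18 of 19. With RA against vehicle, 2 of 16 cytosolic calls were kept and 15 of 16 directions. In idSG against mSSC and iSC against idSG no call of a member was kept under every alternative, and in iSC against mSSC 5 of 11 cytosolic calls were. The causes were not tested.

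Under quantile normalization RA against vehicle had 3 cytosolic genes higher and 9 lower, with Farsa at 0.018 (adjusted p = 0.636), Hars at 0.10 (adjusted p = 0.0326) and Tars at 0.11 (adjusted p = 0.0187) turned upwards (limma). RA with CHX against RA then had 2 cytosolic genes lower, Hars and now Kars (-0.19, adjusted p = 0.00053), with Qars turned to -0.0207 (adjusted p = 0.618). In iSC against idSG 3 cytosolic genes were lower, and in iSC against mSSC 2 were higher. With the spread of all 12 libraries, RA against vehicle had 0 cytosolic genes higher and 2 lower, and 0 mitochondrial genes higher and 1 lower. Over all tested genes the RA calls dropped to 193 higher and 317 lower in that setting. RA with CHX against vehicle then had 1 cytosolic gene lower. In idSG against mSSC 2 cytosolic genes were higher, 5 cytosolic lower and 4 mitochondrial lower. In iSC against idSG 1 cytosolic gene was higher and 11 lower, and 1 mitochondrial gene higher and 6 lower. In iSC against mSSC 2 cytosolic genes were higher, with 1 mitochondrial gene higher and 7 lower.

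Without the trend, RA against vehicle had 0 mitochondrial genes higher, idSG against mSSC had 0 cytosolic genes higher, 0 lower and 0 mitochondrial lower, iSC against idSG had 0 lower in either compartment, and iSC against mSSC had 1 mitochondrial gene higher. Without the filter on low values, idSG against mSSC had 0 cytosolic genes higher and 1 lower, and iSC against idSG had 0 lower in either compartment. Under median-ratio scaling, idSG against mSSC had 0 cytosolic genes higher, and iSC against idSG had 2 cytosolic and 0 mitochondrial lower. With a pseudocount of 0.1, iSC against idSG had 0 mitochondrial genes lower.

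With the replicate number as a block, idSG against mSSC had 0 cytosolic genes higher and 1 lower and 0 mitochondrial lower, and iSC against idSG had 0 lower in either compartment. Deviations of same-numbered libraries correlated between -0.025 and 0.092, so the numbers did not pair them. Repeated lines summed, an alternative chosen after seeing the data, moved no count by over 1.5 times.

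Leaving out 1 library at a time gave these ranges. Calls over all tested genes moved too, and at their lowest fell most in the comparisons with idSG. A loss of calls there was thus not particular to the members. RA against vehicle had 0 to 1 cytosolic genes higher, 14 to 15 lower, and 0 to 1 mitochondrial higher, 1 to 4 lower. RA with CHX against vehicle had 17 cytosolic higher, 2 lower, 10 mitochondrial higher and 0 to 1 lower; against RA it had 17 to 18 cytosolic higher, 1 lower, 10 to 11 mitochondrial higher and 0 to 1 lower. In idSG against mSSC 0 to 1 cytosolic genes were higher, 0 to 4 lower and 0 to 1 mitochondrial lower. In iSC against idSG 0 to 4 cytosolic genes and 0 mitochondrial genes were lower. In iSC against mSSC 0 to 1 cytosolic genes were higher and 6 to 13 lower, and 1 to 5 mitochondrial lower. Without the first library of the combination, Lars2 turned to 0.53 against RA (adjusted p = 0.0391), and without the second it was -0.73 (adjusted p = 0.0126). A group left with 1 library is assumed to vary like the others. With 2 libraries a group, differences of the size seen between replicates, a median SD over members of 0.149 in idSG and 0.16 in iSC on the log2 scale, limit what the induction experiment can show.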
